A study of Arabidopsis thaliana with 32 samples.

Results

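The central transposable elements (TEs) of chromosomes 2 and 4 of Arabidopsis thaliana are described here across 4 genotypes. Members are rows of the TE count table with identifiers from AT2TE05000 to AT2TE30000 and from AT4TE07500 to AT4TE29000, and with 10 or more counts summed over the 8 RNA libraries. The windows lie around the centromeres and the heterochromatic knob of chromosome 4, and identifier numbers were taken to follow position. They hold 6375 of the 31189 TE rows of the table. Of these, 4121 had no count in any library and 1622 had 1 to 9 counts, which left 632 members, 372 on chromosome 2 and 260 on chromosome 4. At the edge of the rule, 26 rows summed to 9 counts and 27 rows summed to 10.

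RNA was sequenced from leaves of 3-week-old plants of the Col0 ecotype. The groups were wild type, atxr5/6, gcn5 and the combined mutant atxr5/6 gcn5, with 2 libraries each. The labels give no mutant alleles and do not say whether the libraries of a genotype came from separate or pooled plants, so p-values measure the spread between these libraries, which may be technical. The chromatin immunoprecipitation samples of the series were not analysed here. In bulk tissue, RNA from fewer cells and less RNA per cell cannot be told apart.

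TEs are mobile sequences that plants keep silent, and they crowd the heterochromatin around the centromeres, where DNA methylation and repressive histone marks restrain transcription. ATXR5 and ATXR6 are methyltransferases that place a single methyl group on lysine 27 of histone H3.1, and their joint loss is known to release heterochromatic TEs from silencing. GCN5 is a histone acetyltransferase, a class of enzyme generally linked with active transcription. No sequences, TE families or coordinates are printed, since none were used here.

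The gene table summed to between 24860332 and 43969417 counts per library and the TE table to between 75865 and 171823. ATXR5 stood at 3.26 and 3.21 CPM, counts scaled to library size, in wild-type leaves, 0.777 and 0.85 in atxr5/6, 1.95 and 2.07 in gcn5, and 0.229 and 0.171 in atxr5/6 gcn5. ATXR5 was also called lower in gcn5 against wild type, at -0.69 ± 0.18 (log2, SE; edgeR adjusted p = 0.020). ATXR6, with at most 22 counts in a library, was not called in atxr5/6 or atxr5/6 gcn5 against wild type. It stood at 0.456 and 0.463 CPM in wild type, 0.216 and 0.196 in atxr5/6, and 0.588 and 0.377 in atxr5/6 gcn5. The level of ATXR6 therefore did not check the label of the combined mutant. GCN5 lay between 4.25 and 5.56 CPM without the gcn5 label and between 4.83 and 6.11 with it, so its level did not check that label, and gcn5 below means the libraries labelled so. Ribosomal RNA genes took 0.293% to 2.37% of gene counts in the 4 libraries without the gcn5 label and 13.3% to 21.6% in the 4 with it, so that share and the label cannot be told apart. The photosynthetic leaf marker RBCS1A lay between 2388 and 4396 CPM in every library. Leaf markers were called lower in gcn5 (3 of 4) and in atxr5/6 gcn5 (4 of 4) against wild type. Both seed markers were at 0, the 3 flower markers reached at most 1.84 CPM, and the pollen marker VGD1 reached 2.33 CPM in gcn5 replicate 2.

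Summed over all members, TE transcripts were highest in atxr5/6 and lower in atxr5/6 gcn5. The members summed to 383.0 and 384.1 CPM in the wild-type libraries, to 721 and 717 in atxr5/6, to 421 and 439 in gcn5, and to 477 and 463 in atxr5/6 gcn5. No library of a genotype overlapped with those of another genotype. The mean of atxr5/6 was 1.88 times that of wild type, and the mean of atxr5/6 gcn5 was 0.654 times that of atxr5/6. Atxr5/6 gcn5 stood at 1.23 times wild type and 1.09 times gcn5, and gcn5 at 1.12 times wild type. On chromosome 2 alone atxr5/6 gcn5 and gcn5 did not separate (284 and 287 CPM, ratio 0.990, two-sided exact permutation p = 1), while on chromosome 4 the ratio was 1.296. Over both chromosomes, each pair gave p = 0.33 in a two-sided exact permutation test, the smallest p that 2 libraries against 2 allow. As a share of all TE counts, the members held 13.7% ± 0.857 (SD, n = 2) in wild-type leaves, 19.2% ± 0.277 in atxr5/6, 11.8% ± 0.125 in gcn5, and 14.4% ± 0.559 in the combined mutant.

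In summed CPM, chromosome 4 differed more between wild type and atxr5/6 than chromosome 2. The 260 members of chromosome 4 stood at 131 ± 5.49 CPM (SD, n = 2) in wild type and 345 ± 5.38 in atxr5/6, a ratio of 2.63, and stood at 186 ± 4.02 in atxr5/6 gcn5. The 372 members of chromosome 2 stood at 252 ± 4.76, 374 ± 2.57 and 284 ± 6.32 CPM in the same order, a ratio of 1.48 between atxr5/6 and wild type. The difference between the chromosomes was not tested. Other TEs of chromosomes 2 and 4 with at least 10 counts, 585 in number, summed to 638 ± 57.2 CPM in wild type and 681 ± 16.1 in atxr5/6, a ratio of 1.07. The 2244 TEs of chromosomes 1, 3 and 5, arms and centres together, summed to 1719 ± 110 and 2232 ± 17.3 CPM. That is a ratio of 1.299 and a larger difference in CPM than that of the members. The members come from central windows only, so their ratio and this one do not compare the chromosomes.

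**Figure D1:**
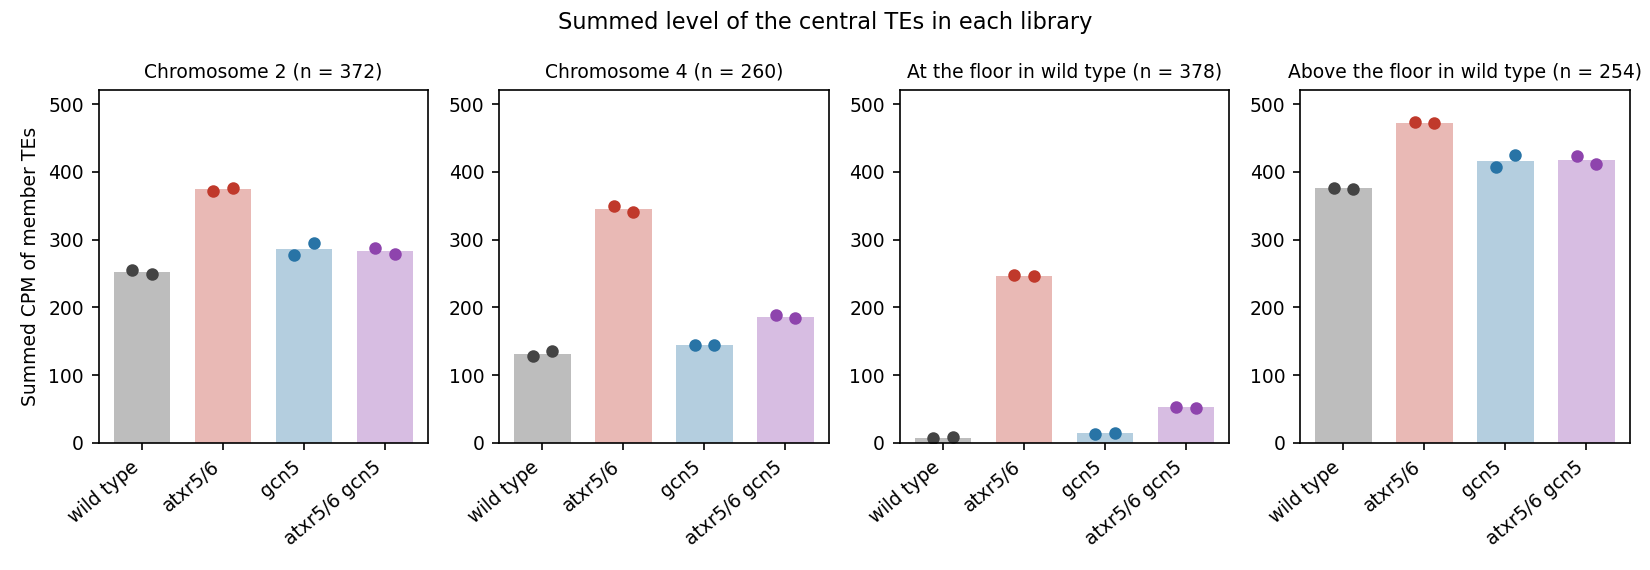
Summed CPM of the member TEs in each library (points) with the mean of the 2 libraries (bars), by genotype, for chromosome 2, chromosome 4, and members at the floor or above the floor of 3 counts per library in wild type. Members at the floor in wild type reached 248 and 246 CPM in atxr5/6 and 53.3 and 51.5 in atxr5/6 gcn5.

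Most members were silent in wild-type leaves as far as this depth shows. A member was taken as at the floor in a genotype when both libraries held 3 counts or fewer. In wild type 378 of the 632 members were at the floor, 220 on chromosome 2 and 158 on chromosome 4. The number was 395 in gcn5, 270 in atxr5/6 gcn5 and 95 in atxr5/6. The floor is set in counts, so these numbers and the shares below also depend on depth. In replicates 1 and 2, 3 counts were 0.0652 and 0.116 CPM in wild type and 0.0648 and 0.0980 in atxr5/6. They were 0.122 and 0.113 in gcn5, and 0.0981 and 0.103 in atxr5/6 gcn5. Of the 378 members at the floor in wild type, 306 (81.0%) stood above it in atxr5/6, 158 (41.8%) in atxr5/6 gcn5 and 48 (12.7%) in gcn5. A member needs counts in some genotype to be kept, so the size of these shares, and of the differences given next for the same members, partly follows from the rule.

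These 378 members summed to 6.43 and 9.27 CPM in wild-type leaves, 248 and 246 in atxr5/6, 13.8 and 14.6 in gcn5, and 53.3 and 51.5 in the combined mutant. They made up 71.2% of the difference in summed CPM between atxr5/6 and wild type and 78.0% of that between atxr5/6 and atxr5/6 gcn5. In atxr5/6 gcn5 the mean CPM was below that in atxr5/6 for 312 of the 378 and above it for 66, and it was under 0.5 times it for 247. Since most of the 378 were kept through their counts in atxr5/6, a lower value in another genotype is partly fixed by the choice of members. The other 254 members were above the floor in wild type, some of them only just. They summed to 376 ± 1.27 CPM (SD, n = 2) in wild-type leaves, 472 ± 1.11 in atxr5/6, 416 ± 12.1 in gcn5, and 418 ± 9.07 in the combined mutant. Across all members, atxr5/6 had the highest mean in 366 (57.9%), atxr5/6 gcn5 in 99, gcn5 in 97 and wild type in 70.

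Many of the tested members rose in atxr5/6 and few fell. In edgeR's quasi-likelihood test, 248 members passed the filter on low counts (145 on chromosome 2 and 103 on chromosome 4) and 384 did not. Of the 248, 123 were called higher and 7 lower in atxr5/6 against wild type at an adjusted p under 0.05. Over all 1540 TEs tested, 30.9% were called, 26.6% higher and 4.29% lower. The share of members called was 52.4%, and their median log2 fold change was 1.00 against 0.24 over all TEs tested. Of the 123 higher members, 98 came from the 103 tested members at the floor in wild type, which passed the filter only through genotypes in which they are high and so had to differ. The 145 tested members above that floor had 25 higher and 7 lower, 22.1% called, with a median of 0.17. The larger share of members called therefore rests on members that the filter kept for being high in another genotype, and nothing is read from it. On chromosome 4, 57 of 103 were higher and 1 lower, and on chromosome 2, 66 of 145 were higher and 6 lower. Among the other TEs of chromosomes 2 and 4, 27 of 267 were higher and 17 lower. Among the TEs of chromosomes 1, 3 and 5, arms and centres together, 260 of 1025 were higher and 42 lower.

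**Figure D2:**
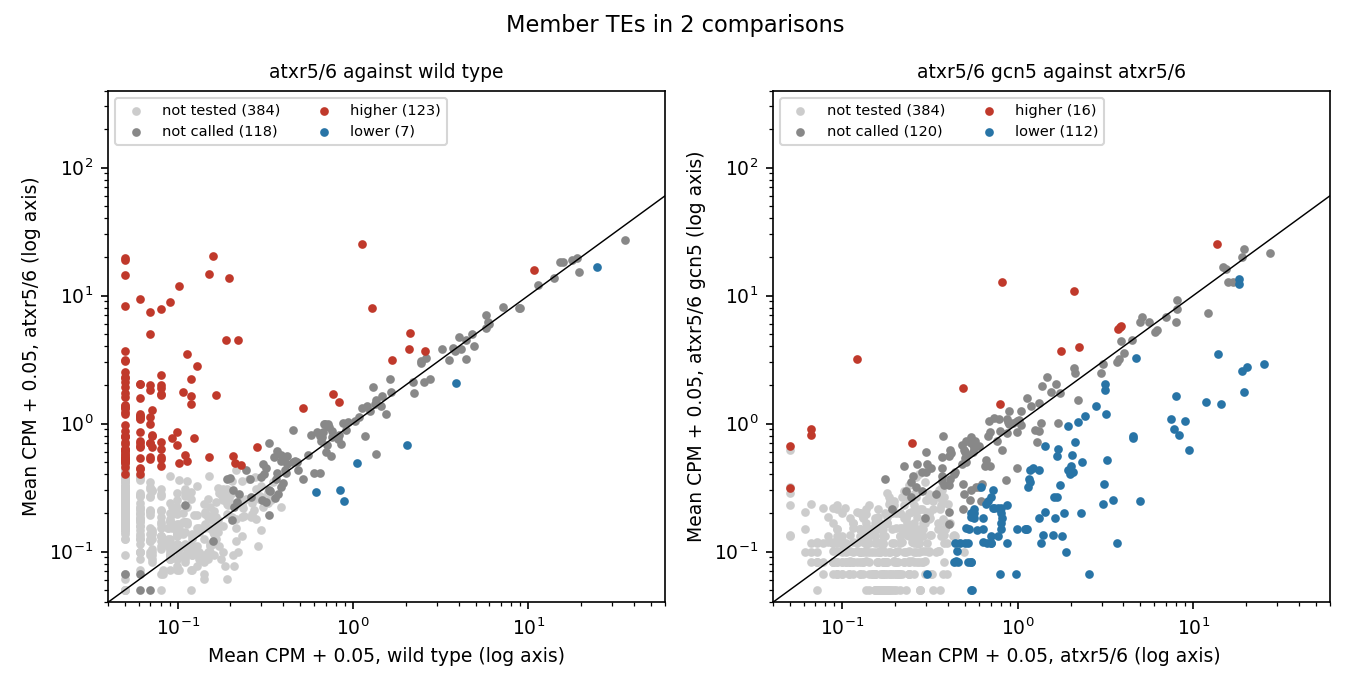
Mean CPM plus 0.05 of each of the 632 member TEs on log axes, atxr5/6 against wild type (left) and atxr5/6 gcn5 against atxr5/6 (right), with points coloured by the call and the line of equal levels drawn. In the left panel 123 points are called higher and 7 lower, and in the right panel 16 are higher and 112 lower.

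Most of the members with the smallest p were at or near 0 in wild type and plainly transcribed in atxr5/6. AT4TE15820 had no count in either wild-type library and stood at 18.5 and 19.1 CPM in atxr5/6, 0.0406 and 0.0753 in gcn5, and 2.65 and 2.43 in atxr5/6 gcn5. It was on in both atxr5/6 libraries, near the floor with gcn5 alone, and at 13.5% of the atxr5/6 level in the combined mutant, with no overlap between these last 2 genotypes. Against 3 counts per wild-type library, it was at least 208-fold higher in atxr5/6. As a member at the floor in wild type it had to differ to pass the filter, so no p is read for it.

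The neighbouring rows AT2TE19610 and AT2TE19615 gave similar values. AT2TE19615 had no count in wild-type leaves, 18.8 and 20.03 CPM in atxr5/6, 0 and 0.113 in gcn5, and 1.54 and 1.92 in the combined mutant. AT2TE19610 had none in wild-type leaves, 14.7 and 14.1 CPM in atxr5/6, 0 and 0.0376 in gcn5, and 1.34 and 1.40 in the combined mutant. The atxr5/6 libraries were far above all others for both rows. They were at least 215-fold and 159-fold higher in atxr5/6 than in wild type.

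AT4TE16900 stood at 0.0652 and 0.0386 CPM in wild-type leaves, 12.2 and 11.4 in atxr5/6, 0.162 and 0.188 in gcn5, and 1.27 and 1.58 in the combined mutant, at least a 130-fold difference between atxr5/6 and wild type. AT2TE15880 stood at 0.0652 and 0.154 CPM in wild-type leaves, 19.9 and 20.7 in atxr5/6, 0.122 and 0.339 in gcn5, and 2.35 and 3.08 in the combined mutant. AT4TE17360 stood at 8.89 and 8.86 CPM in atxr5/6 and 0.948 and 1.06 in atxr5/6 gcn5. In all 3 the order was the same, with atxr5/6 highest, the combined mutant next, and wild type and gcn5 near the floor.

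AT4TE09845 differed in being transcribed in wild type. It stood at 1.20 and 0.966 CPM in wild-type leaves, 25.4 and 25.0 in atxr5/6, 2.03 and 2.30 in gcn5, and 3.07 and 2.71 in the combined mutant. The 2 libraries of each genotype lay close together and no genotypes overlapped. Its log2 fold change in atxr5/6 against wild type was 4.51 ± 0.18 (SE; edgeR adjusted p = 2.1e-09).

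Of the 7 members lower in atxr5/6, AT4TE21085 had the smallest p. It stood at 2.24 and 1.70 CPM in wild type and 0.777 and 0.490 in atxr5/6, a log2 fold change of -1.61 ± 0.29 (SE; edgeR adjusted p = 0.00066). The others were AT2TE25290, AT2TE25295, AT2TE09335, AT2TE18815, AT2TE26610 and AT2TE26615, all on chromosome 2, with log2 fold changes from -1.91 to -0.56. None of these 6 calls held in every alternative.

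Between atxr5/6 and the combined mutant, most of the members that fell had been kept mainly through their counts in atxr5/6. In atxr5/6 gcn5 against atxr5/6, 112 of the 248 members were called lower and 16 higher. Over all TEs tested 39.6% were called, 26.4% lower and 13.2% higher. The members' median log2 fold change was -0.69 against -0.06 over all TEs tested. Of the 112 lower members, 85 were among the 103 tested members at the floor in wild type, which passed the filter mainly through their counts in atxr5/6. The 145 tested members above that floor had 27 lower (18.6%) and 12 higher, 26.9% called, with a median of 0.09. The larger share of members called lower therefore rests on members that the filter kept for being high in atxr5/6, and nothing is read from it. On chromosome 4, 53 of 103 were lower and 7 higher, and on chromosome 2, 59 of 145 were lower and 9 higher. With the ribosomal RNA share of each library as a covariate only 2 members were called, AT4TE09845 and AT2TE25440, and that share separates the same libraries as the gcn5 label. With it the SEs were larger and the fold changes moved unevenly. AT4TE15820 was at -3.09 ± 0.89 (log2, SE) with the covariate and -2.88 ± 0.17 without it, and AT2TE15880 at -1.39 ± 0.83 with it and -2.90 ± 0.21 without it. Without atxr5/6 replicate 1 the count was 78. The 4 leaf markers were called lower in this comparison too, and their part in it was not tested.

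The size of the difference varied among members. AT4TE09845 fell by 3.12 ± 0.16 (SE) on the log2 scale (edgeR adjusted p = 3.7e-07). AT4TE09570 stood at 9.46 and 9.28 CPM in atxr5/6 and 0.654 and 0.480 in atxr5/6 gcn5, a log2 fold change of -4.03 ± 0.30 (SE). AT2TE22520 stood at 2.66 and 2.84 CPM in atxr5/6 and 1.31 and 1.34 in atxr5/6 gcn5, which is 48.1% of the atxr5/6 level. In each of these members both atxr5/6 gcn5 libraries lay below both atxr5/6 libraries.

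AT4TE19655 was high in both genotypes. It stood at 0.0869 and 0.116 CPM in wild-type leaves, 15.3 and 14.0 in atxr5/6, 0.325 and 0.640 in gcn5, and 17.9 and 15.3 in the combined mutant. The libraries with atxr5/6 were all high, with or without gcn5. Its log2 fold change in atxr5/6 gcn5 against atxr5/6 was 0.18 ± 0.17 (SE; edgeR adjusted p = 0.41), so no difference was detected.

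**Figure D3:**
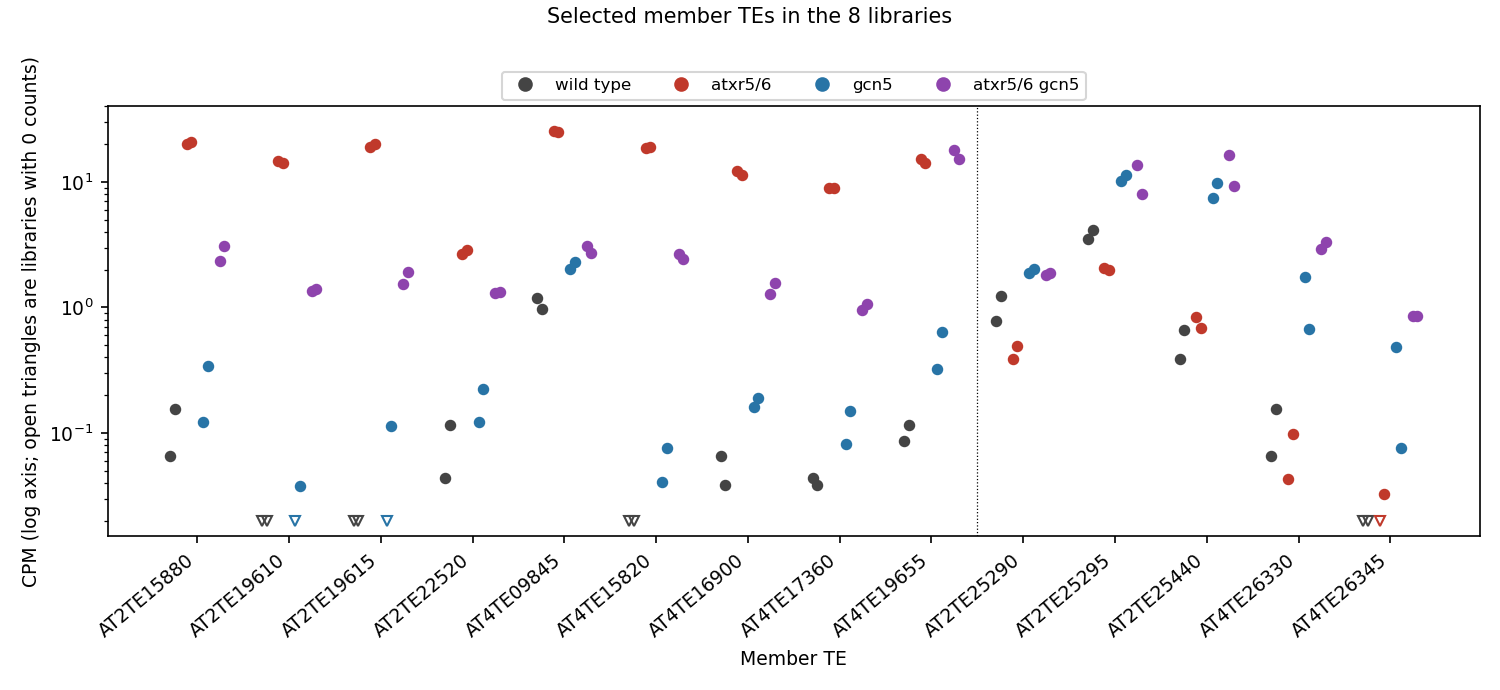
CPM of 14 member TEs in the 8 libraries on a log axis, coloured by genotype, with open triangles for libraries with no count. Left of the dotted line are members high in atxr5/6, of which AT4TE19655 alone stands as high in atxr5/6 gcn5 (17.9 and 15.3 CPM), and right of it are members high in the libraries labelled gcn5.

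In gcn5 against wild type, few members were called, and many were at the floor in both genotypes. Against wild type, 22 of the 248 were called higher in gcn5 and 7 lower, 11.7% in all, where 19.7% of all TEs tested were called, 14.2% higher and 5.52% lower. The members' median log2 fold change was 0.26 against 0.22 over all TEs tested. Of the 248, 90 were at the floor in both genotypes and passed the filter through the others. The 145 tested members above the floor in wild type had 17 higher and 7 lower, 16.6% called. The lower share of members called therefore rests in large part on members at the floor, and nothing is read from it. With TMM factors of the TE table, under which the median over all TEs was 0.00, the split was 19 higher and 13 lower. With the ribosomal RNA share as a covariate 2 were called, and without wild-type replicate 1 the count was 18. The leaf markers and the ribosomal RNA share moved with the same libraries, and their part in these calls was not tested. The pollen marker VGD1 stood at 0 and 2.33 CPM in gcn5 replicates 1 and 2, and the flower markers PI at 0.690 and 1.84 and AG at 0.203 and 1.24, and the part of these in the calls was not tested.

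AT2TE25440 had the smallest p among the members called higher in gcn5. It stood at 0.391 and 0.657 CPM in wild-type leaves, 0.842 and 0.686 in atxr5/6, 7.39 and 9.75 in gcn5, and 16.2 and 9.32 in the combined mutant. All 4 libraries with the gcn5 label were above all 4 without it for this member. From wild type to gcn5 it rose by 4.10 ± 0.34 on the log2 scale (SE; edgeR adjusted p = 1.4e-05), and this call held with the ribosomal RNA covariate.

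Successive rows AT2TE25290, AT2TE25295 and AT2TE25300 were all called higher in gcn5. AT2TE25295 stood at 3.52 and 4.13 CPM in wild-type leaves, 2.07 and 1.99 in atxr5/6, 10.2 and 11.4 in gcn5, and 13.5 and 8.05 in the combined mutant. It was lowest in atxr5/6 and highest in the libraries labelled gcn5, which overlapped between gcn5 and atxr5/6 gcn5. On chromosome 4, AT4TE26330 stood at 0.0652 and 0.154 CPM in wild-type leaves, 0.0432 and 0.0980 in atxr5/6, 1.75 and 0.677 in gcn5, and 2.94 and 3.32 in the combined mutant. It was at least 38.5-fold higher in atxr5/6 gcn5 than in atxr5/6. The rows AT4TE26330, AT4TE26335 and AT4TE26345 were all called higher in that comparison. Each of them was at the floor in atxr5/6 and reached 10 counts only in libraries labelled gcn5. They passed the filter through those libraries and so had to differ, and nothing is read from these calls.

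A few members were lower with the gcn5 label. AT4TE09225 stood at 2.76 and 2.36 CPM in wild-type leaves, 3.24 and 3.10 in atxr5/6, 0.406 and 0.301 in gcn5, and 0.392 and 0.548 in the combined mutant. AT2TE24520 stood at 4.46 and 4.29, 3.04 and 3.24, 1.14 and 0.903, and 1.08 and 1.20 CPM in the same order. In both, all libraries labelled gcn5 lay below all others, and the log2 differences between gcn5 and wild type were -2.86 ± 0.29 and -2.10 ± 0.21 (SE). With the ribosomal RNA covariate neither was called, at -2.82 ± 1.08 and -2.48 ± 0.73 (log2, SE), values about as large with wider errors.

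Some members were higher in the combined mutant than in wild type or gcn5. Against wild type, 93 of the 248 members were called higher in atxr5/6 gcn5 and 17 lower, where 38.8% of all TEs tested were called, 29.6% higher and 9.22% lower. Against gcn5, 51 were higher and 3 lower, where 12.7% of all TEs tested were called, 11.2% higher and 1.43% lower. Of these higher members, 70 of the 93 and 43 of the 51 came from the 103 tested members at the floor in wild type. The filter kept those only for being high in another genotype. The 145 above that floor had 23 higher and 17 lower against wild type (27.6% called). Against gcn5 they had 8 higher and 3 lower (7.59%). Both shares are below those of all TEs tested, so nothing is read from the members' larger shares of 44.4% and 21.8%. AT4TE17470 stood at 0.0217 and 0.270 CPM in wild-type leaves, 14.6 and 12.9 in atxr5/6, 0.0406 and 0.113 in gcn5, and 3.33 and 3.56 in the combined mutant, and was at least 29.4-fold higher in atxr5/6 gcn5 than in gcn5. Both libraries of the combined mutant lay between those of atxr5/6 and those of wild type and gcn5. The count against wild type was 20 with the ribosomal RNA covariate and 67 without wild-type replicate 1. The count against gcn5 was 35 with one or the other atxr5/6 library left out and 31 without gcn5 replicate 2.

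The interaction asks whether the gcn5 label went with a different change in the atxr5/6 background than in wild type. It was called for 16 members, all negative, 6.45% of the 248. Over all TEs tested 4.94% were called, 0.519% positive and 4.42% negative. Of the 16, 9 came from the 103 tested members at the floor in wild type, whose median was -3.22. Those passed the filter mostly through their counts in atxr5/6, so a negative value is partly fixed for them. The 145 tested members above that floor had 7 called (4.83%), with a median of -0.15. Nothing is read from the count. The split was 2 positive and 12 negative when TMM factors came from the TE table. The smallest p was that of AT4TE09845, at -4.10 ± 0.26 on the log2 scale (SE; edgeR adjusted p = 3.5e-06), which rose from wild type to gcn5 and fell from atxr5/6 to atxr5/6 gcn5. AT4TE21055 stood at 1.37 and 1.08 CPM in wild-type leaves, 7.94 and 7.91 in atxr5/6, 0.893 and 0.866 in gcn5, and 1.63 and 1.54 in the combined mutant, with an interaction of -1.81 ± 0.30 (SE; edgeR adjusted p = 0.0078). The count was 5 without wild-type replicate 1, 6 without wild-type replicate 2, 6 and 4 without atxr5/6 replicates 1 and 2, and 3 without gcn5 replicate 2.

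The members differed along the identifiers. On chromosome 4, those from AT4TE12615 to AT4TE17480 stood at 34.2 ± 3.92 CPM (SD, n = 2) in wild-type leaves, 139 ± 2.63 in atxr5/6, 32.0 ± 0.876 in gcn5, and 44.8 ± 1.57 in the combined mutant. In this stretch 22 of 27 tested members were higher in atxr5/6 and 23 were lower in atxr5/6 gcn5 than in atxr5/6. Over all TEs tested the shares were 26.6% and 26.4%. Of the 64 members of this stretch, 53 were at the floor in wild type. From AT4TE22600 to AT4TE28870 the sums were 17.2 ± 1.32 in wild type and 21.1 ± 0.141 in atxr5/6. There 1 of 15 tested members was called in atxr5/6 against wild type, where 30.9% of all TEs tested were. In that stretch 23 of 51 members were at the floor in wild type. Members at that floor were kept mostly through their counts in atxr5/6, so the contrast between these stretches partly follows from how members were kept. On chromosome 2 the stretch from AT2TE15030 to AT2TE19940 stood at 78.0 ± 10.7 in wild type, 148 ± 0.109 in atxr5/6 and 71.2 ± 6.85 in the combined mutant. These stretches were not tested against each other. Of the 123 members higher in atxr5/6, 18 (14.6%) had a member with the same call next to them in the table, and 79 of the 248 tested (31.9%) had a tested neighbour at all.

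**Figure D4:**
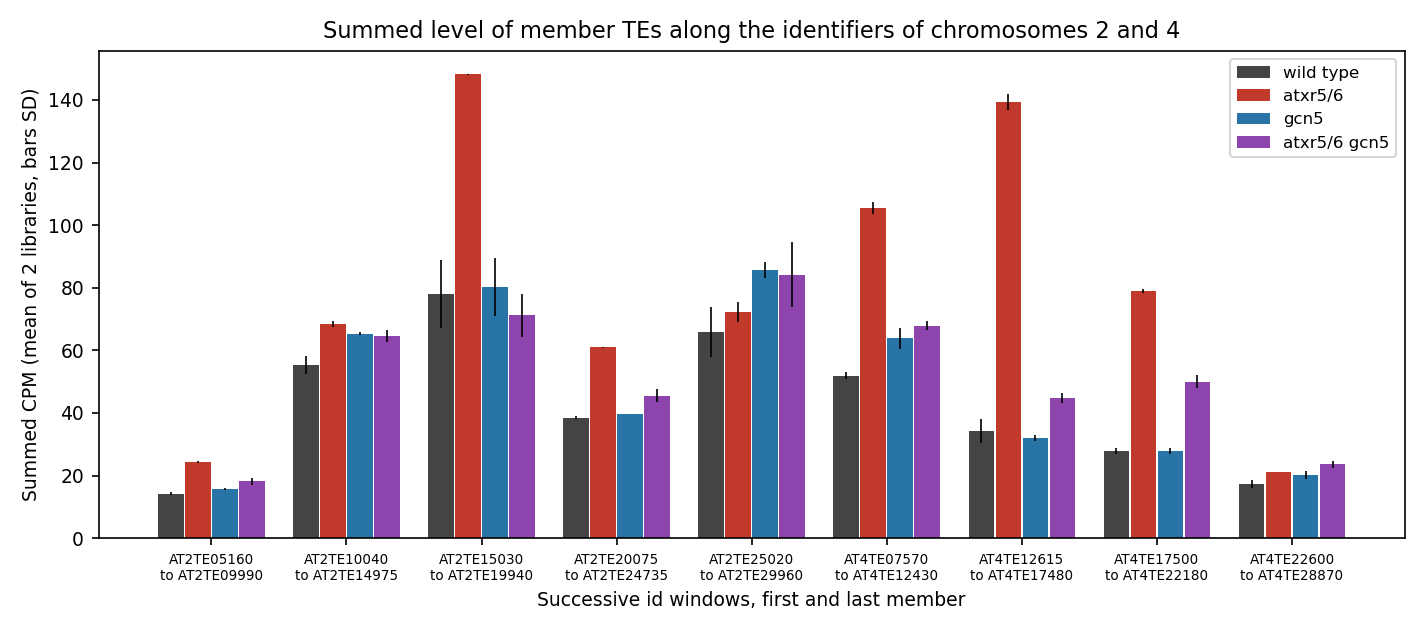
Summed CPM of the member TEs in 9 successive stretches of identifiers on chromosomes 2 and 4, with bars for the mean of the 2 libraries of each genotype and lines for the SD. The stretch from AT4TE12615 to AT4TE17480 stands at 139 CPM in atxr5/6 and at 34.2 in wild type, and the last stretch of chromosome 4 at 21.1 and 17.2.

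A small number of members carried much of the wild-type signal. The 10 most abundant held 48.7% and 46.9% of member counts in the wild-type libraries and 28.0% and 28.3% in atxr5/6. AT2TE18115 stood at 43.2 and 28.2 CPM in wild-type leaves, 28.9 and 25.6 in atxr5/6, 31.0 and 28.0 in gcn5, and 18.6 and 24.2 in the combined mutant. Its wild-type libraries were far apart, and it was not called in atxr5/6 against wild type. AT2TE20870, at 17.98 to 24.8 CPM, and AT2TE29775, at 17.3 to 21.4 CPM, were called in none of the 6 comparisons. AT4TE10320 stood at 13.1 and 14.8 CPM in wild-type leaves, 13.5 and 13.6 in atxr5/6, 20.5 and 23.7 in gcn5, and 26.7 and 24.0 in the combined mutant. It was higher in all libraries labelled gcn5, and gcn5 exceeded wild type by 0.67 ± 0.14 on the log2 scale (SE; edgeR adjusted p = 0.006).

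None of the tested genes that silence TEs was called lower against wild type. The list held 18 genes, and all but SUVH6 passed the low-count filter (17). In atxr5/6, 5 were called higher than in wild type and none lower, where 13.2% of all genes tested were called, 5.48% higher and 7.69% lower. The 5 were MET1, the maintenance DNA methyltransferase, SUVH4, a histone H3 lysine 9 methyltransferase, and NRPD1, RDR2 and DCL3 of RNA-directed DNA methylation. In gcn5 against wild type 7 were higher and none lower, where 37.5% of genes were called (18.1% higher, 19.4% lower), among them NRPE1, the largest subunit of RNA polymerase V, at 1.17 ± 0.16 (log2, SE). In atxr5/6 gcn5 against wild type 9 were higher and none lower, where 39.1% of genes were called, 18.7% higher and 20.4% lower. Set against atxr5/6, the combined mutant had 5 higher and 1 lower, where 36.7% were called, 18.4% higher and 18.3% lower. The lower one was RDR2, the RNA polymerase that copies TE transcripts into double-stranded RNA. It stood at 4.65 and 4.48 CPM in wild-type leaves, 7.53 and 8.43 in atxr5/6, 4.38 and 3.61 in gcn5, and 4.48 and 4.76 in the combined mutant, so both atxr5/6 libraries were above all others. Against gcn5, where 0.092% of genes were called (0.0817% higher, 0.0102% lower), edgeR called 0, with 1 gene at an unadjusted p under 0.05. For the interaction, where 0.47% were called (0.266% positive, 0.204% negative), edgeR called 0, with 5 at an unadjusted p under 0.05. With the ribosomal RNA covariate the counts were 0 for gcn5 and atxr5/6 gcn5 against wild type and 0 for atxr5/6 gcn5 against atxr5/6, and with library totals alone they were 3, 2 and 2. These counts also moved with single libraries. The count for atxr5/6 against wild type was 0 with one or the other atxr5/6 library left out, 1 without wild-type replicate 2 and 3 with one or the other gcn5 library left out. For gcn5 against wild type it was 4 and 3 without gcn5 replicates 1 and 2. For atxr5/6 gcn5 against wild type it was 3 without wild-type replicate 2 and 4 without atxr5/6 gcn5 replicate 2. Against atxr5/6 it was 2 with one or the other atxr5/6 library left out and 3 without atxr5/6 gcn5 replicate 2.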

How the data were processed

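Read counts per gene and per TE for 8 RNA libraries were used as the authors deposited them; the unit was read from the values. Per the labels' protocols, stranded libraries followed depletion of ribosomal RNA. The submitters' processing notes name TAIR10, STAR 2.7.2a, featureCounts 1.6.4 and DESeq2 1.26, with no role or order. The strand setting and the handling of reads that map to several places are not given in the sources used here, so near-identical TE copies, and TEs that overlap genes, can share or lose reads. The members and gene lists were chosen with earlier results of these data known.

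All 8 libraries entered one edgeR 4.0.16 quasi-likelihood fit (R 4.3.3) with genotype as the only term. Effective library sizes were TMM factors of the gene table. TEs and genes were filtered with filterByExpr (minimum count 10), which left 1540 TEs and 19575 genes, and p-values were adjusted by Benjamini-Hochberg over all of them. CPM used the same library sizes. SE is the absolute log2 fold change over the square root of F. Where neither library of a genotype held more than 3 counts, the fold against it was computed against 3 counts per library. Such a fold is a lower bound. Floors cover counting error only, while the SEs also include the spread between libraries. Named members were, per comparison and chromosome, those called with the smallest p and no overlap, and the 5 most abundant; AT2TE25300 and AT4TE21055 were added after their values were seen. Alternatives were other scalings, filters, DESeq2 1.42.0, a replicate block, a ribosomal RNA covariate and leaving out each library.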

Additional observations from a re-analysis of the deposited data

Results flagged for a closer look

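The change that went with the gcn5 label differed between the wild-type and atxr5/6 backgrounds for 16 members by the interaction test (edgeR adjusted p under 0.05). That is 6.45% of the members tested, near the 4.94% of all TEs tested, so the count is not a result about the members. It was between 3 and 6 with a wild-type or atxr5/6 library or gcn5 replicate 2 left out, and AT2TE16270 and AT2TE19615 lost the call in each of these 5 cases. The log2 interaction was -4.10 for AT4TE09845, -4.12 for AT2TE15880, -4.64 for AT4TE16900, -4.55 for AT4TE17360, -4.54 for AT4TE16945 and -3.80 for AT4TE24085. It was -6.90 for AT4TE15820, -6.38 for AT2TE16270, -6.24 for AT4TE09570, -7.51 for AT2TE19615 and -3.09 for AT2TE07145. Where a genotype is at the floor these fitted values are not bounds. Members at the floor in wild type were kept mostly through their counts in atxr5/6, so a negative value is partly fixed for them. For AT4TE19655 it was -2.09, although its level in atxr5/6 gcn5 did not differ detectably from atxr5/6; its rise from wild type to gcn5 was called.

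The 1622 rows of the windows with 1 to 9 counts, which are outside the members, summed to 8.15 and 9.35 CPM in wild type. They summed to 24.2 ± 0.845 CPM (SD, n = 2) in atxr5/6, 13.2 ± 0.869 in gcn5 and 15.5 ± 1.40 in the combined mutant, all above the wild-type libraries.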

How the results depend on the processing

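Without the low-count filter 239 members were called in atxr5/6 against wild type. With a mean of at least 20 counts, which tests fewer TEs, the counts were 44 for atxr5/6, 19 for gcn5 and 53 for atxr5/6 gcn5 against wild type, and 50 and 29 for atxr5/6 gcn5 against atxr5/6 and gcn5. With the ribosomal RNA covariate they were 2 for gcn5 against wild type, 20 for atxr5/6 gcn5 against wild type and 2 against atxr5/6, and AT2TE20520 and AT4TE28200 turned to 0.082 and 0.13 (log2) in gcn5 against wild type; the cause was not tested. DESeq2 called 83 against atxr5/6 and 32 against gcn5. With only the compared genotypes, 59 were called against wild type and 24 against gcn5 for atxr5/6 gcn5. Leaving out single libraries gave 125 to 164 calls for atxr5/6, 18 to 38 for gcn5 and 67 to 123 for atxr5/6 gcn5 against wild type, 78 to 148 against atxr5/6, 31 to 48 against gcn5 and 3 to 19 for the interaction.

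Summed levels in wild type, atxr5/6 and gcn5 were 387, 762 and 408 CPM with library totals, and atxr5/6 was 737 with RLE factors. Members with 30 or more counts summed to 373 in wild type, 685 in atxr5/6 and 453 in atxr5/6 gcn5. Without AT2TE18115 the sums were 348, 692, 401 and 449 for wild type, atxr5/6, gcn5 and atxr5/6 gcn5. Single libraries ranged from 383.0 to 384.1, 717 to 721, 421 to 439 and 463 to 477.

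For the silencing genes the alternatives were chosen after seeing the data. Library totals gave 2, 3 and 2 calls for atxr5/6, gcn5 and atxr5/6 gcn5 against wild type and 2 against atxr5/6; the ribosomal RNA covariate gave 3, 0, 0 and 0; DESeq2 gave 2 for atxr5/6, 4 for atxr5/6 gcn5 against wild type and 2 against atxr5/6. Leaving out single libraries gave 0 to 5, 3 to 7, 3 to 9 and 2 to 6 in the same order, and 0 to 2 for the interaction.

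Deviations of replicate 1 from the genotype mean were weakly correlated between genotypes (from -0.192 to 0.194). Replicate 1 had more gene counts than replicate 2 in every genotype, and the correlations cannot tell whether replicate numbers mark a batch. With a replicate block 127, 31, 105, 128, 53 and 17 members were called in the 6 comparisons, and 3 silencing genes in atxr5/6 against wild type. TMM of the TE table moved the median of all TEs from 0.24 to 0.08 in atxr5/6 and from 0.22 to 0.00 in gcn5 against wild type, from 0.04 to 0.22 in atxr5/6 gcn5 against gcn5 and from -0.28 to 0.04 for the interaction; library totals moved it from -0.06 to -0.18 in atxr5/6 gcn5 against atxr5/6. At this depth, 384 members could not be tested.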
